A study of Drosophila melanogaster with 2 samples.

Results

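The 6 genes described here, scribbler (sbb), roadkill (rdx), schnurri (shn), RapGAP1, supervillin (Svil) and frizzled (fz), are long autosomal genes of Drosophila melanogaster that hold many binding sites of the chromatin protein E(var)3-9. They were chosen by the number of summits in them, a summit being the point of strongest signal in a region. The members are all regions whose summit lies between the ends of the gene or within 500 bp of an annotated transcription start site (TSS). This gave 48 of the 3438 regions that passed the study's threshold on replicate reproducibility, the IDR peaks. Because the count chose the genes, counts, signals and spacings are a description and no test was made of them.

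The binding data came from chromatin immunoprecipitation and sequencing (ChIP-seq) of whole Drosophila embryos of mixed sex, collected from 0 to 24 h of age. The single group was a stable transgenic line that carries E(var)3-9 with green fluorescent protein (GFP) at its C-terminus, and the precipitating antibody was directed against GFP. There were 2 biological replicates, numbered 2 and 3 by the submitters, with no second genotype or treatment to compare. The sources used here do not give which promoter drives the fusion or whether the untagged gene is still present. Values are averages over all cells and ages of a whole-embryo collection, and a list of regions gives no markers against which the labelled material could be checked. The complete lists held 30000 regions for each replicate and 24963 for both replicates together (the joint list). The 3438 IDR peaks were the strongest of that joint list. Read depth is unknown, and the control library is not analysed here, so no background level is given. Signal is the authors' value for each region and has no stated scale.

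E(var)3-9 is a zinc finger protein whose gene was found through its effect on position-effect variegation, in which a gene moved beside heterochromatin is silenced in patches. The 6 genes act in different processes. sbb, also called brakeless, encodes a nuclear corepressor needed for photoreceptor axon targeting, and shn encodes a large zinc finger transcription factor of the Dpp (BMP) pathway that represses brinker together with Mad and Medea. rdx encodes a BTB adaptor of the Cullin-3 ubiquitin ligase that lowers the Hedgehog effector Ci. RapGAP1 encodes a GTPase-activating protein of the small GTPase Rap1, Svil an actin-binding protein of the villin and gelsolin family, and fz a seven-pass receptor of Wnt and planar polarity signalling. Long introns of such developmental genes often hold enhancers, and alternative promoters within them give transcripts that differ in their first exons.

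RapGAP1, rdx, Svil and fz are each shown by the 201 bp around their strongest summit, and rdx also by a pair of summits deep in its second intron, so that the bound sequence can be read beside the values given further on. The sequences are from the Release 6 genome (dm6), RefSeq copy, on the strand of the gene, 5′ to 3′, with the summit at the middle letter. Capitals mark a 6-letter word, ACAGTG or its reverse complement CACTGT, that was picked out after the sequences had been read. None of the windows overlaps an exon.
RapGAP1 upstream of the RapGAP1-RE start, chr2L:7530608-7530808, minus strand: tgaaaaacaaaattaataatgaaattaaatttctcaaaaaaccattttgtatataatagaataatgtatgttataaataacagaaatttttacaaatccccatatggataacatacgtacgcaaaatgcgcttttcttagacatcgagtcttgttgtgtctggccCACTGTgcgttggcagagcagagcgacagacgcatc
rdx upstream of the rdx-RE start, chr3R:13983631-13983831, minus strand: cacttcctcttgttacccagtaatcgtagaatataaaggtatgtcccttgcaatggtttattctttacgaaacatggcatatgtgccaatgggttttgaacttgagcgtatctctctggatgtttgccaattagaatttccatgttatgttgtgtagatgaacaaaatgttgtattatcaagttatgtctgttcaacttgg
Svil upstream of the Svil-RAA start, chr3L:2494220-2494420, plus strand: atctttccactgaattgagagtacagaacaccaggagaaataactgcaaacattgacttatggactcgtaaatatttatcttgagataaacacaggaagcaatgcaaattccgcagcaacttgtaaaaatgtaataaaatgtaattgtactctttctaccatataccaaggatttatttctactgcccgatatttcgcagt
fz intron 1, chr3L:14303976-14304176, plus strand: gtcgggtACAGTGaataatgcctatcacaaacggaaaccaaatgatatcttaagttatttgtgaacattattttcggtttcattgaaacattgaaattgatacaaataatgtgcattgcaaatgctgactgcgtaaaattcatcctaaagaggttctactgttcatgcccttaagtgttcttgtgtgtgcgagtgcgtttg
rdx intron 2, 19.3 kb from the first TSS, chr3R:14012629-14012829, minus strand: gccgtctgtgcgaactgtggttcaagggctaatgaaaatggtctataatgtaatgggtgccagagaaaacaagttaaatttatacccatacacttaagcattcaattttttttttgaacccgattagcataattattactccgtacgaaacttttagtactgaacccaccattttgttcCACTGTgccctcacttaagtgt
rdx intron 2, 13.9 kb from the first TSS, chr3R:14018066-14018266, minus strand: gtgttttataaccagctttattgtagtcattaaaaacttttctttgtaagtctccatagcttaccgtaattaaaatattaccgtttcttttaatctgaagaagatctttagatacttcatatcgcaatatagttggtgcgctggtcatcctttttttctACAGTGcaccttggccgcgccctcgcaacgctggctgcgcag
The RapGAP1 and fz windows and the rdx window at 19.3 kb hold a copy that reads toward the summit, which means ACAGTG before the middle or CACTGT after it on the strand shown. The rdx window at 13.9 kb holds a copy that reads away from it. The windows of rdx upstream of rdx-RE and of Svil hold none, and a copy near the Svil summit lies 129.5 bp from it, past the end of the window.

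The 48 IDR summits were distributed as 10 in sbb, 9 in rdx, 8 in shn and 7 each in RapGAP1, Svil and fz. Per 10 kb of gene this was 1.26 in sbb, 1.38 in rdx, 1.37 in shn, 0.862 in RapGAP1, 0.576 in Svil and 0.742 in fz. The 3 shortest genes had the highest densities. Density divides the number that chose the genes by their span, so this order is tied to the choice and was not tested. All 6 arms together held 0.257 IDR summits per 10 kb. In the 3438 strongest regions of each replicate alone the genes held 44 summits in replicate 2 and 43 in replicate 3. Gene by gene, sbb held 11 in replicate 2 and 9 in replicate 3, rdx 9 and 7, and shn 6 and 10. RapGAP1 held 6 in replicate 2 and 7 in replicate 3, Svil 7 and 6, and fz 5 and 4. shn was the gene with the widest difference between the replicates, and fz had fewer strong summits in either replicate than in the joint list.

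**Figure D1:**
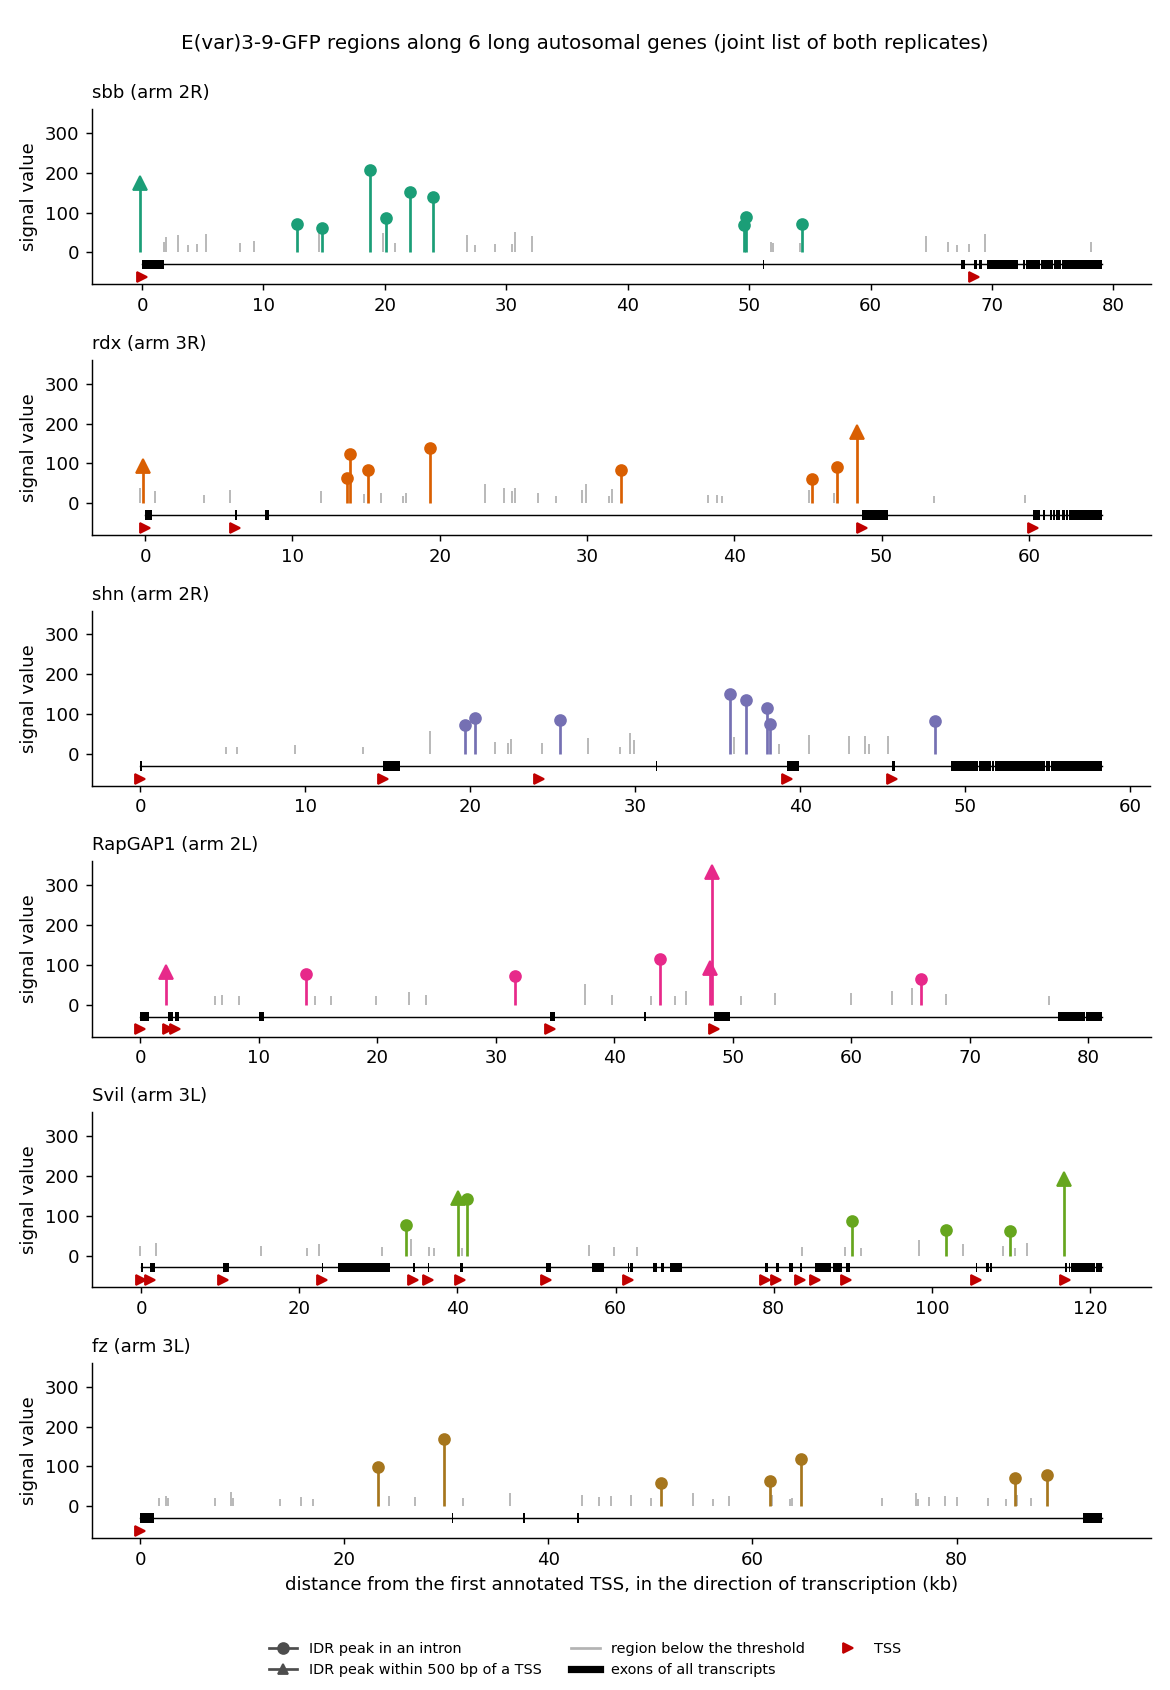
Signal value of each region of the joint list (vertical axis) along the 6 genes, by distance in kb from the first annotated TSS in the direction of transcription. Coloured stems are the 48 IDR peaks, circles in introns and triangles within 500 bp of a TSS; grey stems are the 147 regions below the threshold, black blocks are exons and red arrowheads TSSs. The IDR peaks stand over the thin intron lines, and none stands over an exon block.

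None of the 48 summits lay in an exon of any transcript of its gene, where exons cover between 4.05% of the span in fz and 20.0% in Svil. Of all 3438 IDR peaks 4 lay in coding exons more than 500 bp from a TSS, which is a narrower class. Those in exons of any kind were not counted. There were 40 summits (83.3%, 95% Wilson interval 70.4 to 91.3%, for counting error only) in introns away from every TSS, against 33.0% of all IDR peaks. The other 8 (16.7%, interval 8.70 to 29.6%) lay within 500 bp of a TSS, against 53.9% of all IDR peaks. In the strongest regions of each replicate alone, the promoter share was 19.5% ± 1.31 (SD, n = 2) and the intron share 78.2% ± 1.27 (SD, n = 2). The median distance of a summit from the nearest TSS of its own gene was 4.49 kb and the longest was 88.9 kb, in fz. Beyond 2 kb from those TSSs lay 33 summits and beyond 10 kb 20 of them. TSSs of other genes were nearer to some of these. The fz summit at 88.9 kb lay 6482 bp from the nearest TSS of any gene. These distances were not counted over all IDR peaks. Most of each span is intron, and the rule takes summits inside the spans, so the shares are given with no test.

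sbb spans 18278198 to 18357296 on the minus strand of arm 2R, with 7 transcripts and 2 TSSs. A single intron held most of its IDR summits. Intron 2 of sbb-RG is 65.6 kb long, 83.0% of the span, and held 9 of the 10 summits. They formed separate runs. The first run had 6 summits between 12.7 and 24.0 kb from the first TSS, with the strongest of the gene at 18.8 kb (signal 206 in the joint list, 136 in replicate 2 and 67.9 in replicate 3). The second run had 3 summits between 49.6 and 54.4 kb, after 25.6 kb without an IDR summit. The tenth summit lay 144 bp upstream of the first TSS, which starts 5 of the transcripts, with a joint signal of 174; replicate 2 gave 126 and replicate 3 gave 42.3. The signal at this start was thus 2.97 times as high in replicate 2 as in replicate 3. The second TSS, 68.5 kb downstream, had only a weak joint region (20.7) and no region in either replicate list.

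rdx, from 13967061 to 14032057 on the minus strand of arm 3R, has 5 transcripts and 4 TSSs. Its layout resembled that of sbb in that intron 2 of rdx-RB, 55.8 kb and 85.8% of the span, held 8 of its 9 summits. The strongest of them, 368 bp upstream of the internal start of rdx-RE, had signals of 178 in the joint list, 107 in replicate 2 and 65.8 in replicate 3; its sequence is the second shown above. A group of 4 summits between 13.7 and 19.3 kb from the first TSS included the summits at 13.9 and 19.3 kb, also shown, with signals of 124 and 138. In replicate 2 these were 72.2 and 87.2, and in replicate 3 they were 46.6 and 55.0. The summit upstream of the first TSS lay 134 bp from the start of rdx-RB and 180 bp from the start of the neighbouring gene CG3061 on the opposite strand, so its signal of 94.5 cannot be given to either gene. Its replicate values were 65.4 and 27.1. The start of rdx-RC had a weak joint region (33.9), and that of rdx-RA and rdx-RF had none in any list.

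shn, from 11159086 to 11217394 on the plus strand of arm 2R, has 6 transcripts and 5 TSSs, and no IDR summit lay within 500 bp of any of them. Its 8 summits were all in the first introns of shn-RE, with 3 in intron 1 (31.1 kb) and 5 in intron 2 (17.8 kb). Intron 2 had the highest density of any intron listed here, 2.80 summits per 10 kb. A run of 4 of these lay 3423, 2474, 1216 and 1017 bp upstream of the start of shn-RB, the first and strongest with signals of 151 in the joint list, 93.9 in replicate 2 and 70.2 in replicate 3. The second in the run had a signal of 136, with 94.5 in replicate 2 and 42.2 in replicate 3. The start of shn-RB itself had only a weak region (25.8). In 4 of the 8 shn summits replicate 3 was the higher one, which was so for 7 of the 48 summits in all. Of these 4 the most uneven was the third summit, 1312 bp downstream of the start of shn-RA, with 27.4 in replicate 2 and 56.3 in replicate 3.

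RapGAP1, from 7497805 to 7578980 on the minus strand of arm 2L with 5 transcripts and 5 TSSs, held the strongest region of all 6 genes. It lay 134 bp upstream of the start of RapGAP1-RE, inside intron 2 of RapGAP1-RH, with a signal of 334 (rank 93 of 3438). Replicate 2 gave 188 (rank 89) and replicate 3 gave 143 (rank 99), so both replicates placed it alike. A further summit 206 bp away, 340 bp upstream of the same start, had a signal of 92.5, with 61.2 in replicate 2 and 23.9 in replicate 3. The regions of this pair overlap, so they are not independent measurements. The start of RapGAP1-RD had an IDR summit 203 bp upstream with signals of 81.8 in the joint list, 56.1 in replicate 2 and 29.5 in replicate 3. The first annotated start, that of RapGAP1-RH, had no region in any list, nor had the start of RapGAP1-RI. The remaining 4 summits were intronic, spread between 14.0 and 65.9 kb from the first TSS, with signals from 64.2 to 115.

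Svil is the longest of the 6 at 122 kb (2377655 to 2499226, plus strand of arm 3L) and has the most starts, with 31 transcripts from 16 TSSs. Only 2 of these starts had an IDR summit. The stronger lay 218 bp upstream of the start of Svil-RAA, the last of the gene, with signals of 191 in the joint list, 97.1 in replicate 2 and 92.9 in replicate 3. The other lay 283 bp upstream of the start shared by Svil-RQ, Svil-RR, Svil-RS and Svil-RU, with signals of 145 in the joint list, 65.3 in replicate 2 and 79.4 in replicate 3. Another summit 1254 bp further on, 971 bp past that start, had a signal of 142, with 93.3 in replicate 2 and 53.9 in replicate 3. Along Svil-RAE the summits were in introns 2, 11 and 13, with 3, 2 and 2 of them. The longest gap in any of the 6 genes, 48.6 kb, lay between the last summit of intron 2 and the first of intron 11.

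fz, from 14274343 to 14368639 on the plus strand of arm 3L, has 2 transcripts that share 1 TSS, and all 7 of its summits were far from it. Intron 1 of fz-RA (29.2 kb) held 2 and intron 4 (49.4 kb) held 5, the nearest 23.3 kb and the farthest 88.9 kb from the start. The strongest, at 29.7 kb in intron 1, had signals of 169.6 in the joint list, 109 in replicate 2 and 58.5 in replicate 3 and is shown above. The next, at 64.7 kb in intron 4, had signals of 119 in the joint list, 76.3 in replicate 2 and 41.9 in replicate 3. Within 500 bp the start itself had no region in the joint list or in replicate 3. Replicate 2 had 2 weak ones there, the stronger with a signal of 17.4. The nearest IDR summit of the whole list lay 1732 bp from the start, outside the gene span, so the rule does not take it. The weakest fz summit, with 58.6 in the joint list, lay within the long noncoding gene lncRNA:CR45025 on the opposite strand, 846 bp from its start. fz also had the most regions below the threshold, 34, and the smallest share of joint regions that passed, 17.1%.

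Across the 6 genes 7 of 33 TSSs (21.2%) had an IDR summit at most 500 bp away, against 12.7% of all annotated TSSs. The genes were chosen by their number of summits, including those near TSSs, so this difference was not tested. All 8 promoter summits lay upstream of the start, by 134 to 368 bp, but the upstream share over all promoter IDR peaks was not counted. The 8 include the overlapping pair at the RapGAP1-RE start and the rdx summit that also lies near the start of CG3061. With weaker regions counted, 18 TSSs had a region in the joint list, 24 in replicate 2 and 14 in replicate 3, and the 14 were a subset of those of replicate 2. The shares of all annotated TSSs with a region in these longer lists were not counted. Only in sbb and rdx did the first start of the gene carry an IDR summit. Promoter summits had a median signal of 159, from 81.8 to 334, and intron summits of 83.4, from 58.6 to 206. Over all IDR peaks the medians were 94.2 at promoters and 85.4 in introns. All 48 had a median of 86.6, and all IDR peaks one of 89.3. Among the 860 strongest IDR peaks there were 13 of the 48 (27.1%), close to the 25% of all IDR peaks that this set makes up, and sbb held 4 of them.

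Neighbouring IDR summits of a gene were 4.88 kb apart in the median (42 gaps), from 199 bp in shn to 48.6 kb in Svil. From the strongest regions of each replicate alone the median was 4778 ± 579.8 bp (SD, n = 2). By gene, the median gap was 1.26 kb in shn, 2.08 kb in sbb, 2.96 kb in rdx, 7.46 kb in Svil, 8.51 kb in fz and 12.0 kb in RapGAP1. Closest together were 4 pairs within 300 bp, 1 each in sbb, rdx, shn and RapGAP1, and merging overlapping regions left 44 stretches. Within 1000 bp of another IDR summit were 12 of the 48 (25%), against 18.2% of all IDR peaks. At the other end 15 of the gaps were over 10 kb. Of the 6 gaps within 1000 bp, 4 were the pairs within 300 bp, whose regions overlap. With overlapping regions merged the median gap was 6486 bp. IDR summits thus came both close together and far apart within these genes. The genes were chosen by their number of summits, so the share with a close neighbour was not tested.

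Between the IDR summits lay 147 further regions of the joint list, with signals from 17.8 to 58.1 and a median of 24.6, where the median of all regions below the threshold was 23.3. By class 125 lay in introns, 16 within 500 bp of a TSS, 2 in coding exons and 4 elsewhere. Most of each span is intron, and these classes were not counted over all regions below the threshold. Svil, which has 16 of the 33 TSSs, had 8 of the 16 weak promoter regions, and shn had 4. Of the 195 joint regions in the genes 24.6% passed the IDR threshold, against 13.8% of the whole joint list, a difference that the choice of genes by passing summits contains. The weakest IDR peak of the whole list had a signal of 58.2. The complete lists held 266 regions in these genes in replicate 2 and 169 in replicate 3.

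The replicates were set side by side at the 48 summits. All 48 had a summit within 150 bp in both complete lists, and 33 (68.8%, interval 54.7 to 80.1%) had one among the 3438 strongest of both, against 69.5% of all IDR peaks. Of the others, 7 were matched among the strongest of replicate 2 only, 6 of replicate 3 only and 2 of neither. sbb had 8 of 10 matched among the strongest, rdx 7 of 9, shn 5 of 8, Svil 5 of 7, and RapGAP1 and fz 4 of 7 each. Replicate 2 had the higher signal at 41 of the 48, with a median ratio of replicate 2 to replicate 3 of 1.52 and a range from 0.487 to 4.62. Over all IDR peaks the median ratio was 1.37, so a higher value in replicate 2 was general to the lists. Spearman's rho between the replicates over the 48 was 0.569, and Pearson's r on the log2 scale was 0.607. These are across regions of the same libraries, all selected on the joint signal. The least even was the eighth sbb summit, with 46.0 in replicate 2 and 9.94 in replicate 3, which lies 203 bp from its neighbour.

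**Figure D2:**
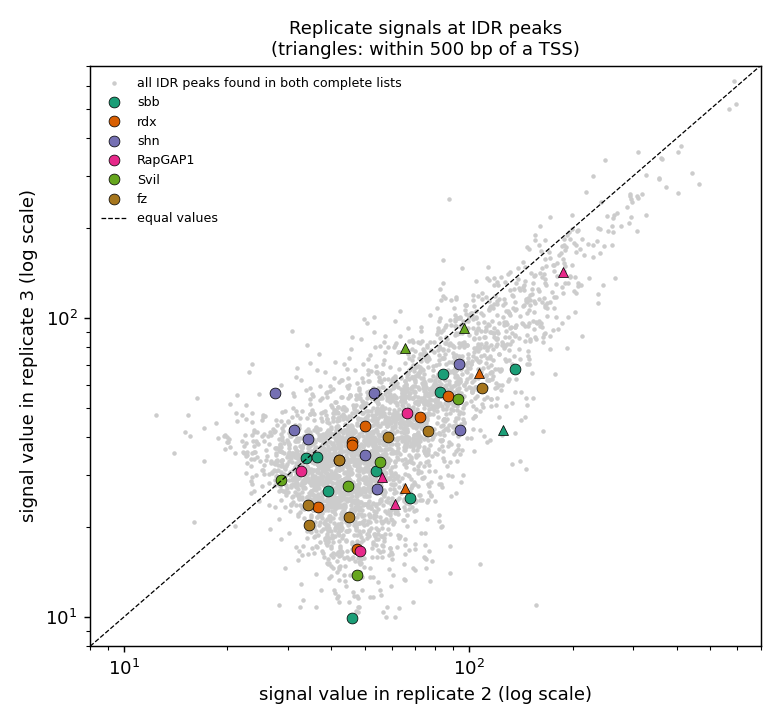
Signal value in replicate 2 (horizontal) against replicate 3 (vertical), both on log scales, at the summits of the 6 genes (colours; triangles within 500 bp of a TSS) and at all IDR peaks found in both complete lists (grey). Of the 48 coloured points 41 lie below the dashed line of equal values, and the RapGAP1 promoter triangle at 188 and 143 is the farthest to the upper right.

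The sequence around the summits was first described by its composition and by 8 short motifs. A and T made up a median of 66.9% of the 201-bp windows (54.7 to 75.1%), against 66.7% over all IDR peaks. Motifs were searched on both strands, and CGATA lies within TATCGATA, so those counts are not separate. CACACA was in 9 of the 48 windows (18.8%, against 12.5% of all IDR peaks and 14.6% of those in introns). CGATA was in 9 (18.8%, against 28.3% and 19.7%). GAGAGA, a run bound by GAGA factor, was in 4 (8.33%, against 9.42% and 12.1%). For these motifs the share over all introns fell inside the 95% interval of the 48 windows, which was 10.2 to 31.9% for CACACA and CGATA and 3.29 to 19.6% for GAGAGA. TATCGATA, the DREF element, was in none of the windows, and over all IDR peaks it was in 3.14% of windows but in 0.0880% of those in introns. GGTCACAC was in 1 window, in rdx (2.08%, against 1.28% and 0.616%), and CAGGTA, a Zelda site, in 2 (4.17%, against 3.93% and 3.70%). A run of 8 A was in 3 (6.25%, interval 2.15 to 16.8%, against 16.6% and 19.4%). In windows of 401 bp it was in 25% against 27.7% of all IDR peaks and 33.1% of those in introns. In windows of 101 bp it was in 4.17% against 8.49% and 9.86%.

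CANCTG, a form of the E-box, was in 3 of the 48 windows (6.25%, interval 2.15 to 16.8%), against 24.1% of all IDR peaks and 23.2% of those in introns. The 3 windows were in rdx and Svil, and the windows of sbb, shn, RapGAP1 and fz had no match. In windows of 101 bp the share was 0% against 11.1% of all IDR peaks, and in windows of 401 bp it was 37.5% against 48.8%. The share was lower than over all IDR peaks at each of these widths, but the windows are nested, so these are not separate results. Of the IDR peaks in introns 47.5% had a match in windows of 401 bp. An interval is given for the 201-bp windows only. No match says only that the letters are not in that window.

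The word in capitals in the sequences above was then counted within 150 bp of every summit, by reading direction. At the 48 summits 15 copies read toward the summit and 4 away from it, 78.9% toward, and 13 windows (27.1%, interval 16.6 to 41.0%) held a copy that reads toward it. All 15 lay between 50 and 150 bp from the summit, with a median of 87.5 bp. At the other IDR peaks 637 of 815 such copies lay in that range and 178 closer, with a median of 81.5 bp. By gene the copies toward and away were 6 and 1 in shn, 3 and 1 in RapGAP1, 2 and 1 in rdx, 2 and 0 in sbb, 1 and 0 in Svil, and 1 and 1 in fz. Windows of close summits overlap, so a copy can be counted for both. The lean was not particular to these genes: at the other 3390 IDR peaks 815 copies read toward the summit and 332 away (71.1%), and 19.1% of windows held a copy toward it. For the other IDR peaks in introns these shares were 75.8% and 23.9%, and for those at promoters 67.7% and 17.1%. In windows centred 1000 bp to the left and right of the other IDR summits the share toward was 48.4% and 51.8%, and at joint regions below the threshold it was 57.5%. In the strongest 3438 of each replicate it was 71.7% in replicate 2 and 69.8% in replicate 3. The word was picked from the windows of the members, so their own count is a description and the other peaks are where it was not chosen.

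**Figure D3:**
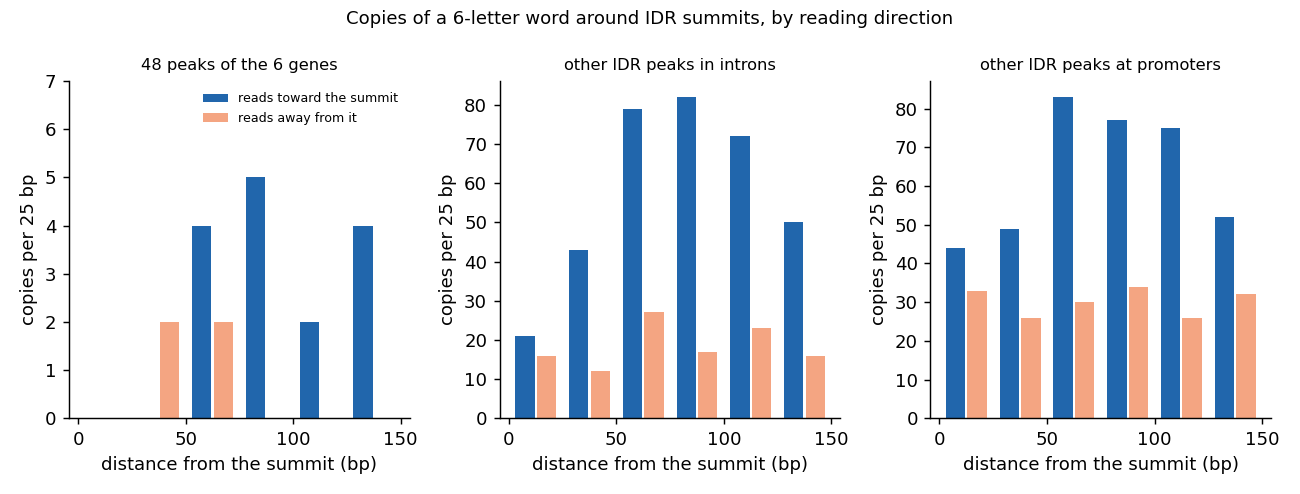
Number of copies of the word per 25 bp of distance from the summit (horizontal, bp), blue for copies that read toward the summit and orange for those that read away, at the 48 peaks of the 6 genes and at other IDR peaks in introns and at promoters. At the 48 peaks the first 50 bp hold no copy that reads toward the summit and 2 that read away, and in the other introns the blue bar is highest, at 82 copies, between 75 and 100 bp.

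The genes were last set among other autosomal protein-coding genes. Of 11669 such genes 8 (0.0686%) had at least 7 IDR summits, the smallest number among the 6, and the rule itself fixes that the 6 are among these 8. The others were ush, which encodes a zinc finger cofactor of GATA factors, with 8 summits in 64.3 kb (1.24 per 10 kb), and CG32264, with 7 in 91.6 kb (0.764 per 10 kb). Likeness here is the number and density of IDR summits, which come from both replicates together. ush had 7 of its summits in introns and 1 at a promoter, and CG32264 had 6 and 1. The strongest ush region had a signal of 1068, above the 334 of RapGAP1, and the strongest of CG32264 had 91.1. Just below the smallest number, 7 genes had 6 summits, with spans from 26.0 to 162 kb and summed signals from 505 to 1041. fz, Svil and RapGAP1, with 7 summits each, had summed signals of 659, 766 and 836. Most genes of this length had few summits: of 186 autosomal genes at least as long as shn, 80 (43.0%) had none, the median was 1, and together they had 0.135 summits per 10 kb.

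**Figure D4:**
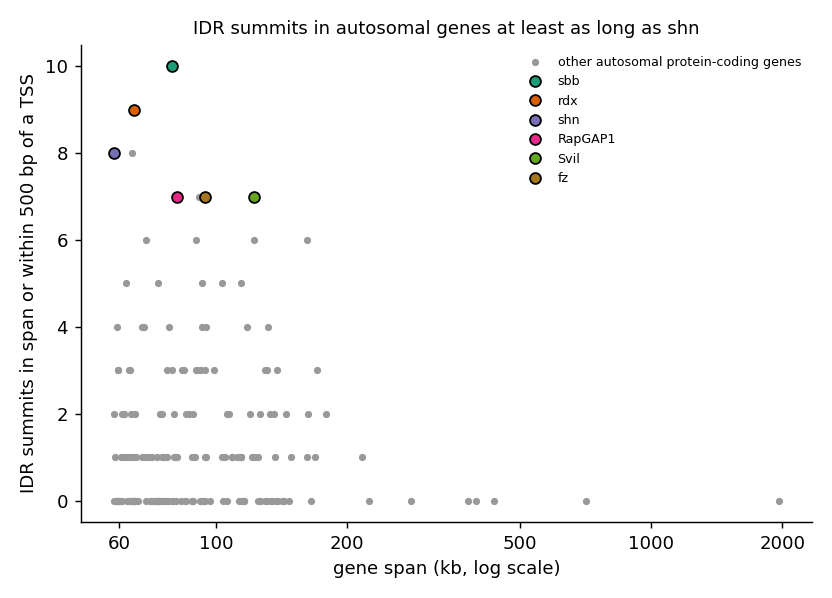
Gene span in kb (horizontal, log scale) against the number of IDR summits in the span or within 500 bp of a TSS, for 186 autosomal protein-coding genes at least as long as shn. The 6 genes (colours) lie at 7 to 10 summits with spans from 58.3 to 122 kb, and most grey points lie at 0 or 1.

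Genes that work with the 6 in their pathways were listed and counted in the same way. Of 44 such genes 3 had a promoter IDR summit, at most 500 bp from a TSS, against 16.5% of protein-coding genes, and 12 had one anywhere, against 20.6%. In the Frizzled and planar polarity list none of 11 had a promoter summit, and in the Hedgehog list none of 10 had any. In the Dpp list none of 11 had a promoter summit and 4 had one elsewhere. In the Rap1 list the GTPase gene Rap1 itself had a promoter summit (79.5), the only one of 5. Among 3 villin and gelsolin genes fliI had one (129). Among 5 genes listed with the Brakeless and Atrophin corepressors gro, which encodes Groucho, had 2, the stronger at 225. Chosen after the values were seen, Gug, the Atrophin gene, had 4 summits away from promoters with a summed signal of 684, and the Dpp inhibitor genes Dad and sog had 3 each.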

How the data were processed

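Summits were taken from 4 deposited dm6 region lists, the complete list of each replicate, the joint list and its IDR peaks, which per the notes deposited with them were called against a control. Signal is the score the authors' caller gave each region, as deposited, without a stated scale. The sources used here name no aligner, caller or threshold. Here summits were converted to 1-based positions and placed on the Ensembl release 115 annotation of the same assembly. An intron summit lay away from every TSS by more than 500 bp and in no exon, and introns were numbered along 1 named transcript. Replicate summits were matched within 150 bp. Wilson intervals (95%) cover counting of regions only. The genes named are the 6, those overlapping or within 500 bp of their summits, up to 8 autosomal genes with as many summits, and up to 4 genes a pathway list with a promoter summit; Gug, Dad and sog fall outside this rule and were added after their values were seen. Of the 45 listed, RapGAP was not found by its name, which left 44. Members and lists were chosen with earlier results of these data known. The dm3 lists were not used. Assignment, matching and word counting were tested on simulated data. Python 3.11.15, numpy 2.4.6, pandas 2.3.3, scipy 1.17.1 and matplotlib 3.10.9 were used.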

Additional observations from a re-analysis of the deposited data

How the results depend on the processing

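No paired analysis was possible because there is 1 group and no comparison. With 2 replicates, no stated signal scale and unknown read depth, values rest on the joint ranking. With 1 replicate left out (the strongest 3438 of the other alone) the genes held 43 to 44 summits, sbb 9 to 11, rdx 7 to 9, shn 6 to 10, RapGAP1 6 to 7, Svil 6 to 7 and fz 4 to 5. The promoter share was then 18.6 to 20.5%, the intron share 77.3 to 79.1% and the median gap 4368 to 5188 bp. Of the word's copies 76.5 to 85.7% read toward the summit, and the other settings tried for the word after the data were seen, 100 and 200 bp, merged regions and midpoints, gave 69.2 to 82.4%. Among the 860 strongest IDR peaks there were 13 summits (sbb 4, rdx 2, shn 2, RapGAP1 1, Svil 3, fz 1), 38.5% of them at promoters, 61.5% in introns, with a median gap of 3271 bp and 100% matched. Over all joint regions there were 195 (36, 35, 28, 27, 28 and 41 in the same order), 12.3% at promoters, 84.6% in introns, with a gap of 1538 bp and 16.9% matched; the construction of these sets, with fewer or more regions, fixes the change in number. Merging overlapping regions moved the gap to 6486 bp. A promoter distance of 250 bp gave a share of 10.4% and 1000 bp one of 27.1%. Matching within 50 bp gave 43.8% and in the complete lists 100%. In windows of 101 bp CACACA was in 4.17%, GGTCACAC in 0% and CANCTG in 0%, and in windows of 401 bp CACACA was in 39.6%, AAAAAAAA in 25%, CGATA in 37.5% and CANCTG in 37.5%. Midpoints in place of summits changed no count or share by more than the spread between replicates. Of the 48 regions 43 were 420 bp wide with the summit at the middle, so there this setting could change almost nothing. Of 92 settings 53 stayed within the stated spread or within 1.5 times the count.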
